A study of Homo sapiens with 6 samples.

Results

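The genes described are EPCAM, the claudins CLDN1, CLDN4 and CLDN7, occludin (OCLN), the scaffold TJP1, the junctional adhesion molecule F11R and the nectin NECTIN1. They are 8 of the 27914 genes in the table, taken by their symbols. They were chosen by their TPM values in the control and α-/-;βin libraries, which were already known. Their values in that comparison are therefore given as a description. Whether the fit over all genes called them is stated, but it is not read as a test of them. Test results are read only for other genes, in lists that were also drawn up with earlier results of these data known.

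Expression was measured by RNA sequencing in MCF10A, an immortalised, non-tumorigenic human breast epithelial cell line. A group of 3 control libraries, named SCRin, had the wild-type genotype, and a group of 3 libraries had the genotype α-/-;βin. Both groups had been given doxycycline for 3 days. No label spells out SCR, in, α or β. The Greek letters are read here as the α and β forms of PI5P4K, the lipid kinase named in the series title, which PIP4K2A and PIP4K2B encode. The labels do not say whether the α-/- cells are 1 clone or whether replicates came from separate cultures. The spread between replicates may therefore be technical. If the α-/- cells are 1 clone, a difference between the groups cannot be told apart from a trait of that clone.

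Tight junctions are the uppermost contacts between neighbouring epithelial cells and limit leakage between them. Claudins form their strands and set which ions pass, occludin and the junctional adhesion molecules accompany the strands, and TJP1, also called ZO-1, ties them to actin. Nectins start cell contacts at the adherens junction just below, through the adaptor afadin. EPCAM is a single-pass membrane glycoprotein of epithelial cells that binds claudin-7 and shields it from degradation; in breast tissue it is known as a marker stronger in luminal than in basal cells.

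Values are TPM, a relative transcript abundance scaled for gene length and to the same total in each library, so that levels can be compared between genes. TPM keeps no read depth, and the precision of low values is unknown. PIP4K2A stood at 19.8, 20.2 and 21.7 TPM in control replicates 1 to 3 and at 4.09, 4.16 and 4.35 TPM in α-/-;βin replicates 1 to 3. PIP4K2B stood at 20.8, 23.1 and 21.4 TPM and at 8.20, 8.69 and 11.6 TPM. Both were lower in each library labelled α-/-;βin. The libraries had between 14738 and 15058 genes above 0. The 12096 genes whose mean over the libraries reached 1 TPM were tested with limma on log2(TPM + 1), a scale that understates the change of low genes. Of these, 265 passed an adjusted p of 0.05, 221 lower and 44 higher in α-/-;βin cells. That number was 106 without control replicate 3, 119 without α-/-;βin replicate 3 and 163 without α-/-;βin replicate 1, so the shares of all tested genes given beside the counts are those of the fit with all 6 libraries.

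EPCAM was at a several-fold higher level in α-/-;βin cells. It measured 9.75, 10.9 and 9.40 TPM in the controls and 48.5, 55.4 and 44.6 TPM in the α-/-;βin libraries. Every α-/-;βin library lay above every control, and the groups were far apart compared with their spread. The means were 10.02 ± 0.791 and 49.5 ± 5.46 TPM (SD, n = 3), a ratio of 4.94, and the log2 change was 2.19 (SE 0.12). Among genes above 0 in a library, EPCAM stood above 44.9% to 47.4% of them in the controls and above 78.5% to 81.8% in the α-/-;βin libraries. In RNA from whole cultures, more EPCAM RNA per cell and more cells with EPCAM cannot be told apart.

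NECTIN1 was the other gene of the 8 that was clearly higher in α-/-;βin cells. It measured 34.4, 30.8 and 35.2 TPM in the controls and 58.1, 62.0 and 55.4 TPM in the α-/-;βin libraries. The groups did not overlap, and the replicates of each lay close together, with coefficients of variation of 7.02% and 5.65%. The means were 33.5 ± 2.35 and 58.5 ± 3.30 TPM, a ratio of 1.75, with a log2 change of 0.79 (SE 0.09). In TPM the difference was 25.0 for NECTIN1 and 39.5 for EPCAM.

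TJP1 had a slightly lower level in the α-/-;βin libraries and was not among the genes called. The controls measured 48.0, 50.2 and 55.9 TPM and the α-/-;βin libraries 41.5, 39.3 and 47.6 TPM. The groups did not overlap, as for 17.1% of all tested genes, and the highest α-/-;βin library came close to the lowest control. The means were 51.4 ± 4.11 and 42.8 ± 4.31 TPM, a ratio of 0.834, with a log2 change of -0.26 (SE 0.11).

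F11R, which encodes JAM-A, had the highest level of the 8 genes in both groups and almost the same mean in each. It measured 80.4, 50.5 and 70.0 TPM in the controls and 72.4, 57.1 and 66.7 TPM in the α-/-;βin libraries, with complete overlap. The means were 67.0 ± 15.2 and 65.4 ± 7.73 TPM, and the log2 change was -0.01 (SE 0.18).

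**Figure D1:**
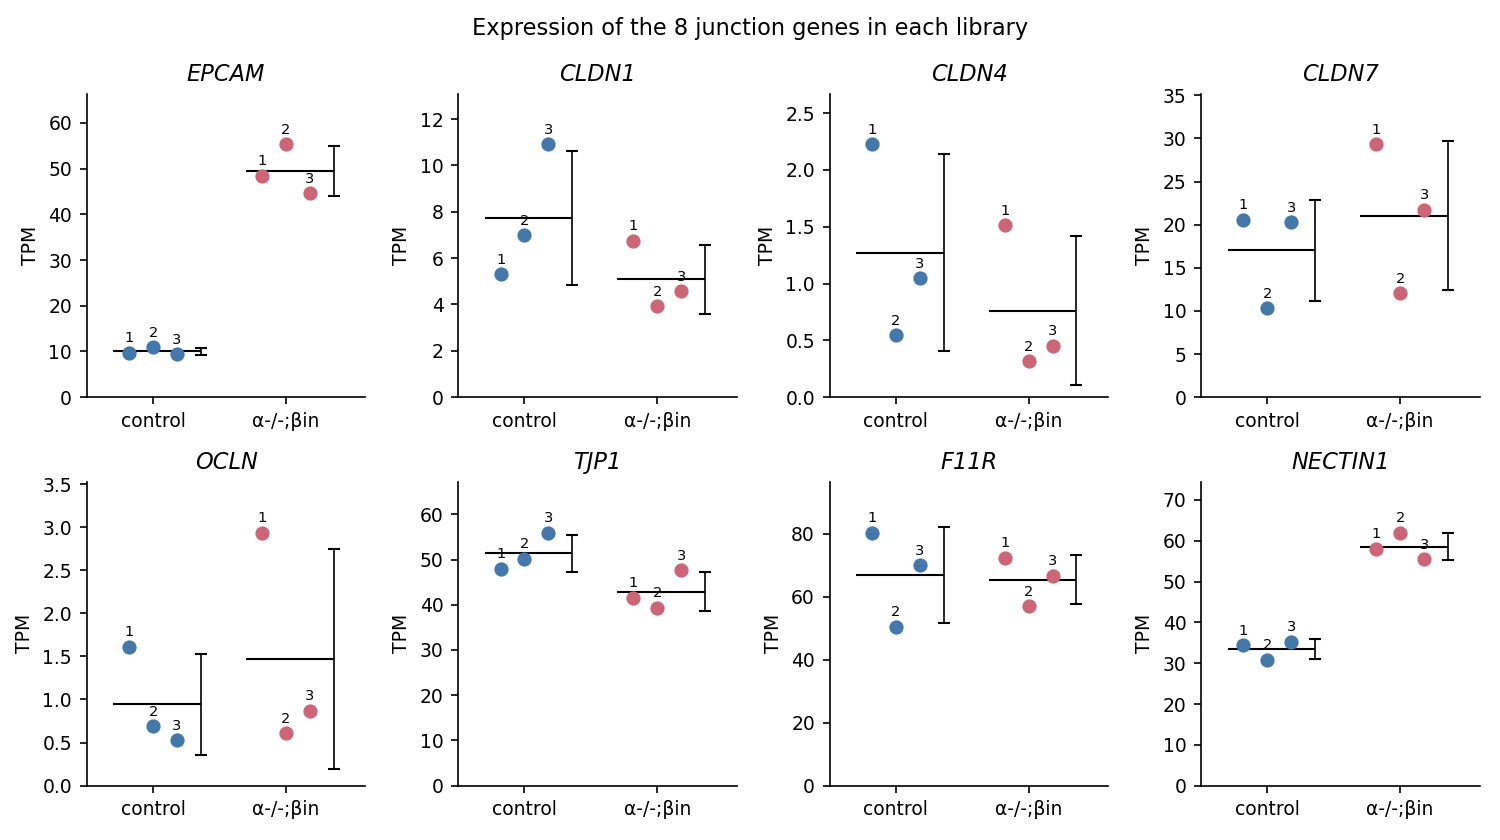
Expression in TPM (vertical axes, linear and starting at 0, each with its own range) of the 8 genes in 3 control (blue) and 3 α-/-;βin (red) libraries. Points carry the replicate number, lines are means and bars are SD (n = 3); EPCAM, NECTIN1 and TJP1 show no overlap between the groups, and the other 5 genes overlap.

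The claudins and occludin differed by less than, or about as much as, their spread. CLDN7, the claudin that EPCAM binds, measured 20.6, 10.3 and 20.3 TPM in the controls and 29.3, 12.1 and 21.7 TPM in the α-/-;βin libraries. The means were 17.1 ± 5.85 and 21.1 ± 8.65 TPM, with a log2 change of 0.27 (SE 0.37). Replicate 2 was the lowest in both groups, and that gap was wider than the one between the group means. CLDN1, a barrier-forming claudin, measured 5.30, 6.98 and 10.9 TPM in the controls and 6.76, 3.93 and 4.56 TPM in the α-/-;βin libraries. Its means were 7.73 ± 2.89 and 5.08 ± 1.48 TPM, with a log2 change of -0.50 (SE 0.28) and overlapping groups.

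CLDN4 and OCLN were near the lower limit of what was tested. CLDN4, another sealing claudin, measured 2.23, 0.543 and 1.05 TPM in the controls and 1.51, 0.318 and 0.454 TPM in the α-/-;βin libraries. Its mean over the 6 libraries was 1.02 TPM, and only the control mean reached 1 TPM. OCLN, a strand protein with MARVEL domain, measured 1.61, 0.688 and 0.529 TPM in the controls and 2.94, 0.607 and 0.872 TPM in the α-/-;βin libraries. Its mean over the 6 libraries was 1.21 TPM, and only the α-/-;βin mean reached 1 TPM. Replicate 1 was the highest in both groups for both genes, and the coefficients of variation were between 62.0% and 86.6%. OCLN has a pseudogene copy, OCLNP1, listed at 1.94 to 3.94 TPM in the controls and at 0 to 2.58 TPM in the α-/-;βin libraries, so reads could have been split between the copies and the OCLN values are uncertain. CLDN7 has ELP5 as its next tested gene, at 27.0 to 40.5 TPM over the libraries. The labels do not state whether counting used strand.

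In the fit over all genes, 2 of the 8 were among the genes called higher, EPCAM and NECTIN1, beside 0.364% of all tested genes called higher and 2.19% called in either direction. Of the 8, 3 had groups that did not overlap, beside 17.1% of all tested genes. The choice of the genes used this comparison, so these counts restate it and nothing is read from them. The log2 change was above 0 for 4 genes and below 0 for 4, with a median of 0.13 beside -0.01 over all tested genes.

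The order of levels shifted through EPCAM and NECTIN1. In the controls it was F11R, TJP1, NECTIN1, CLDN7, EPCAM, CLDN1, CLDN4 and OCLN. Of these neighbours, F11R and TJP1 overlapped in their ranges, as did CLDN7 with EPCAM, EPCAM with CLDN1, and CLDN4 with OCLN. In the α-/-;βin libraries the order was F11R, NECTIN1, EPCAM, TJP1, CLDN7, CLDN1, OCLN and CLDN4. There F11R and NECTIN1 overlapped, as did EPCAM with TJP1 and OCLN with CLDN4. EPCAM passed from place 5 to place 3. EPCAM and NECTIN1 were chosen by this comparison, so the shift restates that choice and nothing is read from it.

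The level of EPCAM relative to its partner CLDN7 was higher in the α-/-;βin libraries. In the controls EPCAM had 0.473, 1.06 and 0.464 times the TPM of CLDN7. In the α-/-;βin libraries it had 1.65, 4.58 and 2.05 times that TPM. The ranges did not overlap, and replicate 2, with the lowest CLDN7 and the highest EPCAM of each group, had the highest ratio in both. Relative to TJP1, EPCAM went from 0.168 to 0.217 times in the controls to 0.936 to 1.41 times in the α-/-;βin libraries. EPCAM was chosen by this comparison, so its higher ratio to either gene restates its own change and is no further result.

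Among all claudins, CLDN12 and CLDN7 supplied most of the RNA. The table lists 24 claudin genes, which are the 3 described, the 20 of the list of other claudins and CLDN34, at 0 in every library. Their summed level was 62.4 to 85.3 TPM in the controls and 67.6 to 91.1 TPM in the α-/-;βin libraries. CLDN12, an atypical claudin, made up 58.7% to 68.9% of the claudin TPM in the controls and 54.3% to 71.6% in the α-/-;βin libraries. CLDN7 made up 16.5% to 24.4% and 17.9% to 32.2%. CLDN1 made up 6.28% to 12.8% and 5.82% to 7.42%, and CLDN4 no more than 2.64% in any library. Each of these ranges overlapped between the groups. CLDN7 and CLDN12, put together with their values known, made up 82.5% to 86.2% in the controls and 86.5% to 89.6% in the α-/-;βin libraries. These ranges did not overlap, but the highest control came close to the lowest α-/-;βin library, and no shift is read from them.

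NECTIN1 made up a larger share of the nectin RNA in the α-/-;βin libraries. NECTIN1 made up 44.9%, 42.8% and 45.6% of the TPM of the 4 nectins in the controls and 62.0%, 65.6% and 61.3% in the α-/-;βin libraries. The summed nectin level was 72.0 to 77.2 TPM in the controls and 90.4 to 94.5 TPM in the α-/-;βin libraries. NECTIN1 was chosen by this comparison, so its share and the sum largely restate its own change. NECTIN2, whose values were seen before it was chosen, measured 17.0, 17.0 and 19.2 TPM in the controls and 13.7, 11.3 and 12.4 TPM in the α-/-;βin libraries. Its groups did not overlap, in the direction opposite to NECTIN1, but it missed the threshold (log2 change -0.48, 95% interval -0.74 to -0.21, limma adjusted p = 0.108). NECTIN3 and NECTIN4 were not called either (log2 change -0.12 and -0.17).

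**Figure D2:**
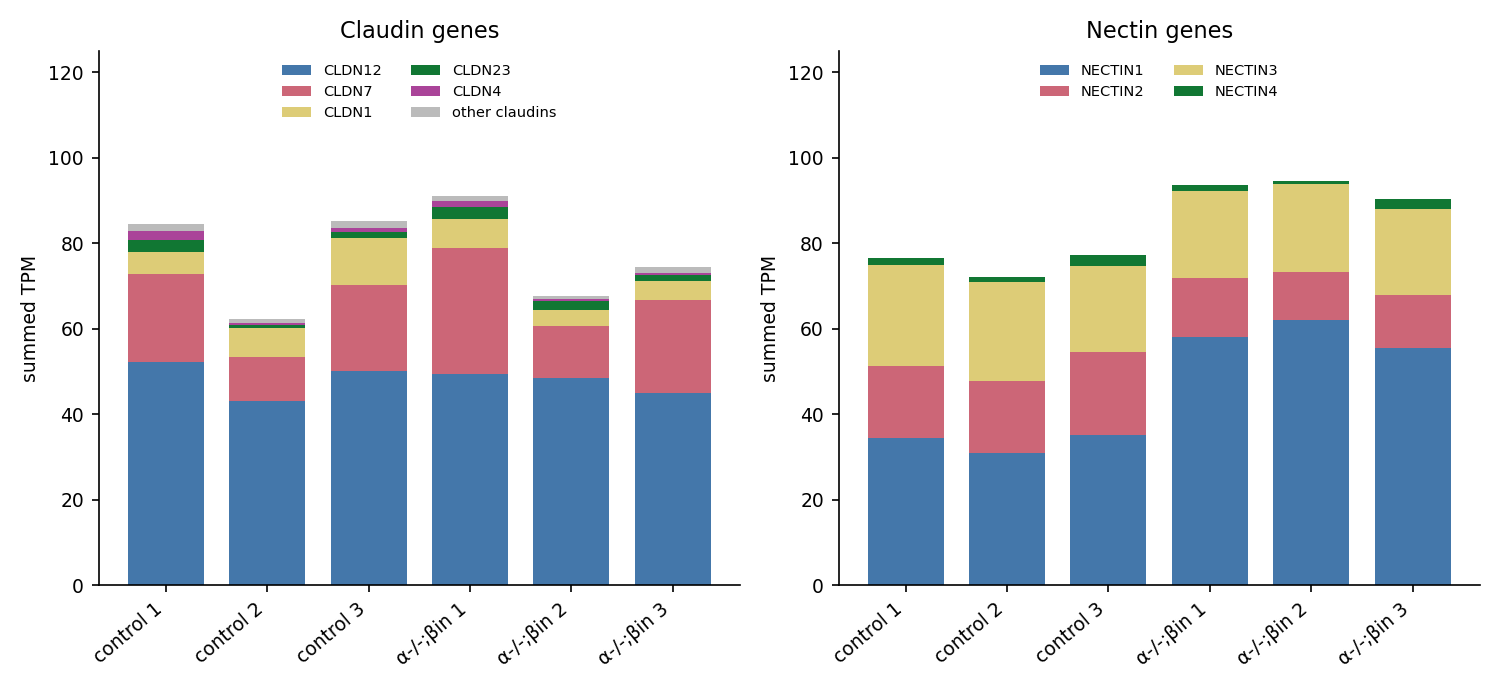
Summed TPM (vertical axis) of the claudin genes (left) and of the 4 nectin genes (right) in each of the 6 libraries, stacked by gene. The claudin total overlaps between the groups, and the NECTIN1 share is 42.8% to 45.6% of nectin TPM in the controls and 61.3% to 65.6% in the α-/-;βin libraries.

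The other genes of the same structures gave no call. A total of 79 junction genes was listed in 5 groups, of which 46 reached the filter and 33 did not. None of the 46 passed limma's test adjusted over all tested genes, beside 2.19% of all tested genes. For a list of this size that is near the share, and it is not read as a result about junction genes. At an unadjusted p under 0.05 there were 7, of which 3 were higher and 4 lower, beside 11.9% of all tested genes. Groups did not overlap for 7 of the 46, or 15.2%, beside 17.1% of all tested genes. Their median log2 change was 0.02. No other tool was run.

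Of 20 other claudins, 2 were tested and neither passed. CLDN12 measured 48.4 ± 4.81 TPM in the controls and 47.6 ± 2.41 TPM in the α-/-;βin libraries (log2 change -0.02, 95% interval -0.26 to 0.22, limma adjusted p = 0.975). CLDN23 measured 1.49 ± 1.05 and 2.11 ± 0.732 TPM (log2 change 0.38, 95% interval -0.47 to 1.23, limma adjusted p = 0.773). The other 18 lay below the filter, and 10 of them, such as CLDN2, CLDN5 and CLDN8, were listed at 0 in all 6 libraries.

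Of 12 other membrane proteins of tight junctions, 6 were tested and none passed, with 0 at an unadjusted p under 0.05. LSR, which recruits tricellulin to corners where cells meet, was the most abundant. It measured 35.0 ± 6.71 and 34.2 ± 9.15 TPM (log2 change -0.04, 95% interval -0.55 to 0.46, limma adjusted p = 0.974). The log2 changes of the 6 lay between -0.13 and 0.16.

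Of 24 plaque and polarity proteins, 16 were tested and none passed. At an unadjusted p under 0.05 there were 3, with 2 higher and 1 lower, beside 11.9% of all tested genes. YBX3, also called ZONAB, a Y-box factor that TJP1 binds, was the most abundant. It measured 251, 262 and 278 TPM in the controls and 307, 368 and 333 TPM in the α-/-;βin libraries. Its groups did not overlap, but it missed the threshold (log2 change 0.35, 95% interval 0.12 to 0.57, limma adjusted p = 0.181). PARD6G, a polarity adaptor of the PAR complex chosen after its values were seen, had the highest log2 change of the list. It measured 4.78 ± 1.38 and 8.83 ± 1.82 TPM (log2 change 0.78, 95% interval 0.26 to 1.30, limma adjusted p = 0.195). MPP5, also named with its values known, was the lower gene of the 3, with groups that did not overlap (log2 change -0.24, limma adjusted p = 0.336).

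Of 6 other nectins, their adaptors and the related receptor PVR, all were tested and none passed, with NECTIN2 alone at an unadjusted p under 0.05. PVR, the poliovirus receptor that binds nectins, was the most abundant, at 48.1 ± 4.63 and 45.2 ± 1.83 TPM (log2 change -0.08, 95% interval -0.32 to 0.15, limma adjusted p = 0.833). AFDN, the afadin that links nectins to actin, was named after its values were seen, and stood at 28.7 ± 2.08 and 30.4 ± 1.81 TPM (log2 change 0.08).

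Of 17 relatives, partners and proteases of EPCAM, 16 were tested and none passed. At an unadjusted p under 0.05 there were 3, with 1 higher and 2 lower, beside 11.9% of all tested genes. CD44, a hyaluronan receptor found in complexes with EPCAM, was the most abundant, at 224 ± 29.8 and 240 ± 38.5 TPM (log2 change 0.10, 95% interval -0.26 to 0.45, limma adjusted p = 0.886). ADAM17, a sheddase that can cleave EPCAM, was named with its values known, and stood at 20.6 ± 1.33 and 27.6 ± 3.22 TPM (log2 change 0.40, 95% interval 0.12 to 0.68, limma adjusted p = 0.214). PRSS8 and PSEN2, also named with their values known, were the 2 lower genes (log2 change -0.41 and -0.22) and missed the threshold.

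**Figure D3:**
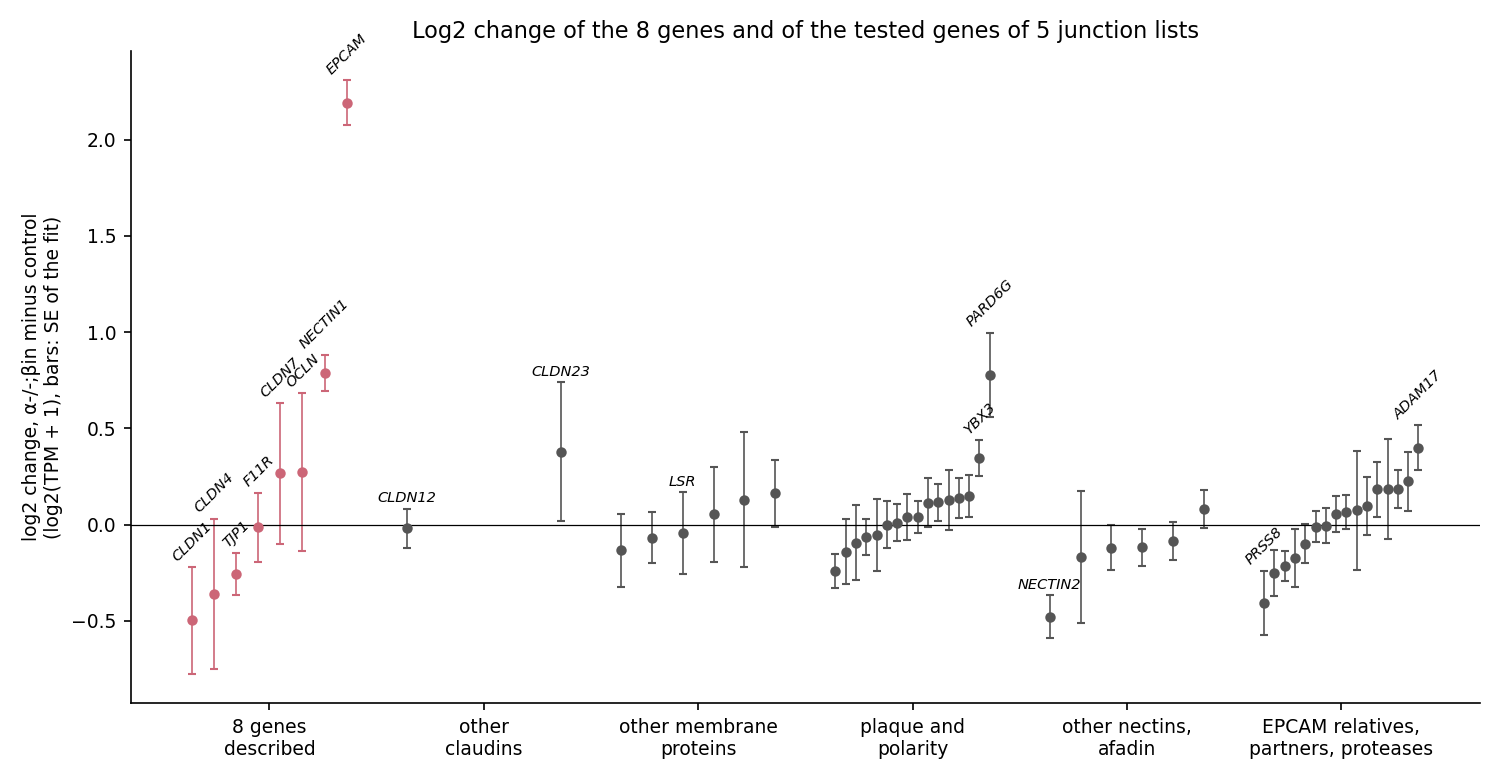
Log2 change (α-/-;βin minus control, on log2(TPM + 1); vertical axis) of the 8 genes (red) and of the 46 tested genes of 5 junction lists (grey), with bars for the SE of the fit; within a list genes are ordered by their change. EPCAM at 2.19 and NECTIN1 at 0.79 stand highest in the red column, whose genes were chosen by these values, and no grey gene passed the adjusted p of 0.05.

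Regulators known to act on epithelial junction genes were listed as well. Of 17, 11 were tested, and 1 was lower and 0 higher by limma, beside 1.83% of all tested genes called lower and 0.364% called higher. TWIST1 and its relative TWIST2 were the 2 with an unadjusted p under 0.05, in opposite directions. TWIST1, a basic helix-loop-helix factor of mesenchymal cells, was the gene that fell, from a control mean of 33.4 ± 1.40 TPM to 15.4 ± 1.87 TPM in the α-/-;βin libraries (log2 change -1.07, SE 0.11, limma adjusted p = 0.00603). TWIST1 lies on chromosome 7 in the run of tested genes from FAM20C to CHCHD2, of which 195 of 198 had a log2 change below 0, with a median of -0.91. TWIST2, named with its values known, stood at 19.0 ± 1.95 and 25.7 ± 2.43 TPM, with groups that did not overlap, and missed the threshold (log2 change 0.42, 95% interval 0.14 to 0.69, limma adjusted p = 0.189). SNAI2, or SLUG, a repressor that binds E-boxes in epithelial genes, was the most abundant of the list. It measured 251, 218 and 277 TPM in the controls and 252, 213 and 263 TPM in the α-/-;βin libraries, with overlapping groups (log2 change -0.03, 95% interval -0.33 to 0.26, limma adjusted p = 0.963). GRHL2, a grainyhead activator of EPCAM and claudin genes in other epithelia and chosen after its values were seen, was listed at 0 in all 6 libraries. The quantifier and annotation are not known, so a listed 0 need not mean that the RNA was absent.

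The E-box bound by SNAI2 and its relatives was looked for in the 250 bases before annotated gene starts, as the letters CAGGTG or their reverse complement CACCTG. RefSeq promoter sequences of GRCh38.p14 matched 5 of the 8 genes, CLDN1, CLDN4, CLDN7, OCLN and TJP1, with 10 windows because some genes have several starts. Of these, 4 windows held the motif, while 17.5% of all 35116 windows and 15.6% of the 13636 windows of tested genes held it. A window of CLDN7 held 4 copies, and 0.122% of all windows and 0.022% of the windows of tested genes held 4 or more. The windows of CLDN1 and CLDN4 held none. The sites are printed because SNAI2 is abundant here and the genes that carry them include a well expressed claudin, CLDN7, beside the low OCLN; capitals mark the motif, and each line gives 30 bases on the gene's strand, minus for CLDN7 and TJP1 and plus for OCLN.
CLDN7 chr17:7262635-7262664: tttcttcctcctCACCTGggcaaggagggg
CLDN7 chr17:7262596-7262625: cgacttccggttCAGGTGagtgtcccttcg
CLDN7 chr17:7262481-7262510: cctacatatactCAGGTGcgccccacctgt
CLDN7 chr17:7262470-7262499: tcaggtgcgcccCACCTGtccgcccgcacc
OCLN chr5:69492502-69492531: ccatccgagtttCAGGTGaattggtcaccg
OCLN chr5:69492645-69492674: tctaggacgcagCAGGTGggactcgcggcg
TJP1 chr15:29969120-29969149: gcggccggcgcgCAGGTGgcccggcctcgc

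The last pair of CLDN7 lines overlap, so that each contains the motif of the other in lower case. A match of letters is a description and not a measured binding site. Genes with the motif differed in level, from CLDN7 at 10.3 to 29.3 TPM and TJP1 at 39.3 to 55.9 TPM to OCLN at 0.529 to 2.94 TPM.

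The 8 genes lie on 8 different chromosomes, and the tested genes next to each did not pass the threshold. EPCAM is on chromosome 2 in the RefSeq order, next to the tested gene CALM2, with a log2 change of -0.14. The 20 tested genes around EPCAM, 10 on each side, had log2 changes from -1.96 to 0.42, with a median of -0.03. Of them, 0 passed the threshold, beside 2.19% of all tested genes. Around NECTIN1, on chromosome 11, the median was -0.02 and 0 of 20 passed. Counts of 0 among 20 genes are near that share, and nothing is read from them. For the other 6 genes the medians lay between -0.07 and 0.01, with RPL39L near CLDN1 as the 1 gene called. CLDN4 on chromosome 7 and CLDN1 on chromosome 3 lie outside the runs of lowered genes on those chromosomes, from FAM20C to CHCHD2 and from SEMA3F to RPP14, which also hold none of the 79 listed junction genes.

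Genes with a pattern most like that of EPCAM were sought by the root mean square difference of log2(TPM + 1), each gene centred on its mean over the 6 libraries, among 9668 genes. CHRNA9, a nicotinic acetylcholine receptor subunit, was the nearest, with a difference of 0.21. It measured 15.0, 17.6 and 13.5 TPM in the controls and 76.9, 57.4 and 68.7 TPM in the α-/-;βin libraries, a ratio of 4.40. IL1B, the cytokine interleukin-1β, followed with a difference of 0.30 and a ratio of 3.77. TFPI2, a serine protease inhibitor, had 0.35, CLCA2, a regulator of chloride channels, 0.38 and PNMA8A 0.39. None of the 5 is a junction gene of the lists. The 46 tested junction genes had log2 changes of at most 0.78, and the 5 genes had 1.47 or more. That absence therefore repeats values already given, and nothing is read from it. NECTIN1, with its smaller change, ranked 33 by this measure with 0.71, and CLDN7 ranked 4801. The search is a description over 6 libraries that fall into 2 groups.

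**Figure D4:**
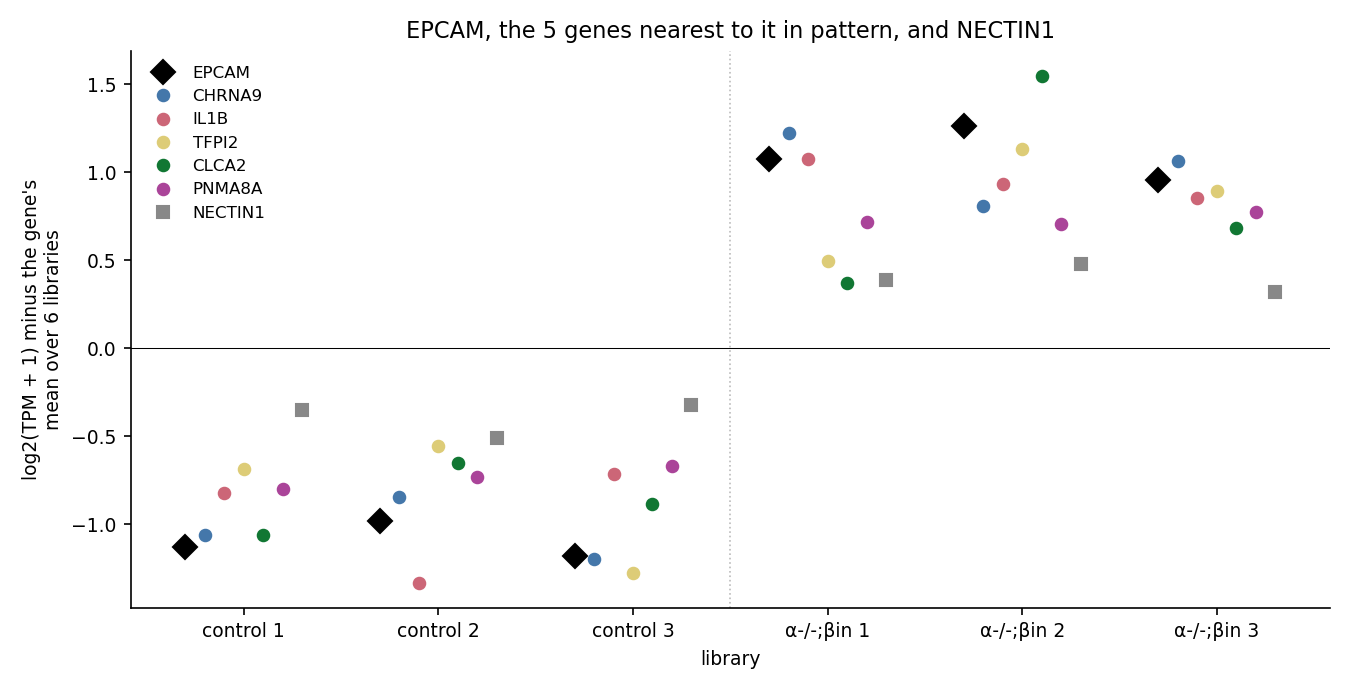
Log2(TPM + 1) minus each gene's mean over the 6 libraries (vertical axis) in each library (horizontal axis), for EPCAM (diamonds), the 5 genes nearest to it (circles) and NECTIN1 (squares). All 7 genes lie below 0 in the controls and above 0 in the α-/-;βin libraries.

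Variation between replicates was not the same for all 8 genes. Replicate 2 was the lowest library of its group in both groups for CLDN4, CLDN7 and F11R, 3 of the 8, beside 16.4% of all tested genes. The same held for 11 of 16 tested relatives, partners and proteases of EPCAM, for 4 of 6 other membrane proteins, for 5 of 8 luminal and for 7 of 11 basal markers. It held for 4 of 16 plaque and polarity proteins, for 1 of 6 other nectins and their adaptors, and for 0 of 2 other claudins. EPCAM went the other way and was highest in replicate 2 of both groups, while NECTIN1 was lowest in control replicate 2 and highest in α-/-;βin replicate 2. This pattern was noticed after the values were seen, and its part in the differences between the groups was not tested.

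Markers of cell types were read in the same libraries. Of 15 luminal markers, 8 were tested and 0 passed limma's test, beside 2.19% of all tested genes. In lists of this size 0 calls are near that share, here and for the lists below. The log2 change was above 0 for 3 and below 0 for 5, with a median of -0.08. FOXA1 alone had an unadjusted p under 0.05 and was higher (log2 change 0.71). The summed level of the luminal markers was 4188 to 5690 TPM in the controls and 3766 to 5373 TPM in the α-/-;βin libraries, most of it KRT7. Without KRT7 it was 862 to 1224 TPM and 828 to 1351 TPM. KIT reached no more than 0.0866 TPM, and ELF5 and PROM1 were at 0 in every library. Of 13 basal markers, 11 were tested and 0 passed. The log2 change was above 0 for 7 and below 0 for 4, with a median of 0.49. At an unadjusted p under 0.05 there were 5, all higher, beside 11.9% of all tested genes in either direction. Groups did not overlap for 4 of the 11, or 36.4%, beside 17.1% of all tested genes. TP63, named with its values known, came nearest to the threshold (log2 change 0.72, limma adjusted p = 0.0664). The summed level of the basal markers was 4642 to 8520 TPM and 4654 to 7742 TPM. Their part in the EPCAM difference was not tested. Of 12 mesenchymal markers, 6 were tested and 0 passed, with 0 at an unadjusted p under 0.05 and sums of 1645 to 2040 and 1468 to 1881 TPM, most of it VIM; COL3A1 and THY1 were at 0 throughout. Of 9 blood and endothelial markers, PTPRC was at 0 in all libraries, and the sums were 2.68 to 6.60 and 7.25 to 10.2 TPM, most of it CD14. CD14 measured 4.43 ± 1.69 and 8.12 ± 1.24 TPM and did not pass (limma adjusted p = 0.264); its part in the EPCAM difference was not tested.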

How the data were processed

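The authors deposited TPM for 27914 gene symbols in 6 samples. Per the submitters' processing notes, hg19 was used. No source used here names the aligner, quantifier, annotation or strand setting. The columns headed as control matched the control samples by name and number, and those headed as the experiment were taken as α-/-;βin, the remaining group. TPM keeps no depth, so no interval from counts is given.

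Genes whose mean reached 1 TPM (12096, 43.3%) were compared on log2(TPM + 1) with limma 3.58.1 in R 4.3.3, using empirical Bayes with a mean-variance trend. The test was two-sided with Benjamini-Hochberg adjustment over all tested genes and a threshold of 0.05. The code was tested on simulated data, where it called 72% of log2 changes of 1 and 97% of log2 changes of 2. A missing call therefore does not show that a gene was unchanged. Of the calls in the simulated data, 6.11% were false. The changed genes were drawn only from those with a control mean above 3 on log2(TPM + 1), with independent noise. The shares recovered therefore do not cover low genes such as CLDN4 and OCLN. Values are mean ± SD (n = 3), and SE and 95% intervals are those of the fit. An exact permutation test of 3 against 3 cannot go below 0.1 and was not used.

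The members and lists were chosen with earlier results of these data known, as were the ends of the chromosome runs. Named were the 8 genes; in each list up to 2 higher and 2 lower calls and the most abundant gene; every other claudin of at least 1 TPM; the neighbours of EPCAM and called neighbours of the others; and the 5 genes nearest EPCAM among those reaching 5 TPM in the higher group, without clone and short RNA names. RefSeq GRCh38.p14 matched 11997 of 12096 tested genes and was used for names, chromosomes, order and promoter sequences. Results for a few withheld genes are not reported here. The alternatives were pseudocounts, filters, scalings, moderation, a replicate block and leaving out each library.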

Additional observations from a re-analysis of the deposited data

How the results depend on the processing

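The log2 changes of EPCAM and NECTIN1, which were chosen by these values, were 2.11 to 2.29 and 0.73 to 0.83 over the 14 alternatives, which gives no independent support to either. TJP1 stayed between -0.34 and -0.20 and CLDN1 between -0.71 and -0.25, and neither passed in any. CLDN7 lay between -0.04 and 0.60 and F11R between -0.20 and 0.13, so their directions were not fixed: CLDN7 was below 0 without control replicate 2 or α-/-;βin replicate 1, and F11R was above 0 in 4 alternatives. CLDN4 fell below the filter in 3 alternatives and OCLN in 2. The number of genes called over the whole table was 106 to 219 with 1 library left out, with 106 without control replicate 3, 119 without α-/-;βin replicate 3 and 163 without α-/-;βin replicate 1, against 265. TWIST1 passed in all 14.

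With the replicate number as a block, 881 genes passed, 284 of them higher (32.2%, against 16.6% without the block), and 3 of the other junction genes passed where none did without it: PARD6G and YBX3 higher and NECTIN2 lower (YBX3 log2 change 0.35, limma adjusted p = 0.0314). No other alternative gave a call among those genes. The labels do not say that numbers pair samples, and the correlations of deviations for equal numbers were 0.246, 0.269 and -0.015, so the block was not taken as the design; samples numbered 1 and 2 correlated best with their own number, and those numbered 3 did not.

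Small changes of uncalled genes altered sign. With median centring CLDN12 had 0.016 and SNAI2 0.0032. With 1 library left out, CLDN12 ranged from -0.10 to 0.035, LSR from -0.25 to 0.11, SNAI2 from -0.12 to 0.059 and CD44 from -0.018 to 0.22. Read depth is unknown, and levels near 1 TPM, as for CLDN4 and OCLN, are the least certain.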
